A study of Mus musculus with 4 samples.

Results

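The tight and gap junction genes of mouse comprise the claudins, occludin and its MARVEL relatives, the zonula occludens and cingulin plaque proteins, the junctional adhesion molecules, the connexins and the pannexins. Members were taken by gene symbol, without use of their values, and 59 of the 54920 listed genes were members. Of these, 41 passed the filter on low counts and were tested among 23952 genes. RNA had been measured in ID4-EGFP+ cells sorted by FACS from testis at day 8 after birth. The 2 control libraries came from *Cnot3* flox/flox mice with the *Id4-eGfp* transgene, which are labelled wild-type. The 2 *Cnot3*-cKO libraries came from mice of the same genotype that also carried *Ddx4-creER*, in which Cre acts in germ cells after 4-OHT, an activator of the CreER protein. All mice had been injected with 4-OHT from day 1 to day 3, so floxed alleles, reporter and injection were shared. Only the *Cnot3*-cKO mice carried a Cre transgene, so its presence and the loss of *Cnot3* cannot be told apart. The study describes its replicates as biological and gives more of them than the libraries per group analysed here. How many mice gave each library was not stated in the sources used here, and p-values measure the spread between these libraries.

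Tight junctions seal the space between neighbouring cells. Claudins, occludin and tricellulin (Marveld2) span the membrane there, and ZO proteins and cingulins tie them to the cytoskeleton. In the seminiferous epithelium the tight junctions between Sertoli cells, the somatic nurse cells of the germ line, form the blood-testis barrier. Gap junctions are clusters of connexin channels through which small molecules pass from cell to cell, and connexin 43 (Gja1) is the main one between Sertoli cells and germ cells. Pannexins form related channels that open to the outside of the cell.

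The libraries held 22192964 to 43378493 reads assigned to genes. Both control libraries were deeper than both *Cnot3*-cKO libraries. *Cnot3*, the targeted subunit of the CCR4-NOT deadenylase, was counted at 58.6 and 50.2 CPM (reads scaled to a common library total with TMM factors) in controls and at 19.2 and 19.9 CPM in *Cnot3*-cKO libraries. The groups did not overlap. It fell by 1.48 ± 0.13 on the log2 scale (SE, n = 2 and 2; edgeR adjusted p = 1.48e-05). Markers of germ cells were abundant, with 10 of 10 pan-germ cell genes tested and a summed level of 4457 to 5211 CPM over the 4 libraries. Somatic markers were also present and differed between groups, as given beside the genes they moved with.

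Among the junction genes, the channel protein *Gja1*, the claudin *Cldn11* and the adhesion molecule *Jam2* were more than 3-fold higher in *Cnot3*-cKO libraries, and the connexin *Gjb2* was 2.11-fold lower. Calls required an edgeR p, adjusted by Benjamini-Hochberg, under 0.01 together with more than a 2-fold difference. By this rule 3 of 41 tested members were called higher, which is 7.32%, against 4.03% of all tested genes. A single member was called lower, which is 2.44%, against 0.735% of all genes. With no limit on the fold, 7 members were higher (17.1%, against 6.21% of all genes) and 4 were lower (9.76%, against 4.70%). For 18 members both *Cnot3*-cKO values exceeded both control values (43.9%, against 30.5% of all genes) and for 13 both were below (31.7%, against 28.6%). For the other 10 members the groups overlapped. The median log2 fold change of the tested members was 0.14, beside 0.01 for all tested genes, and members ranged from -2.62 to 1.98. In bulk RNA, fewer cells of a type and less RNA per cell cannot be told apart.

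**Figure D1:**
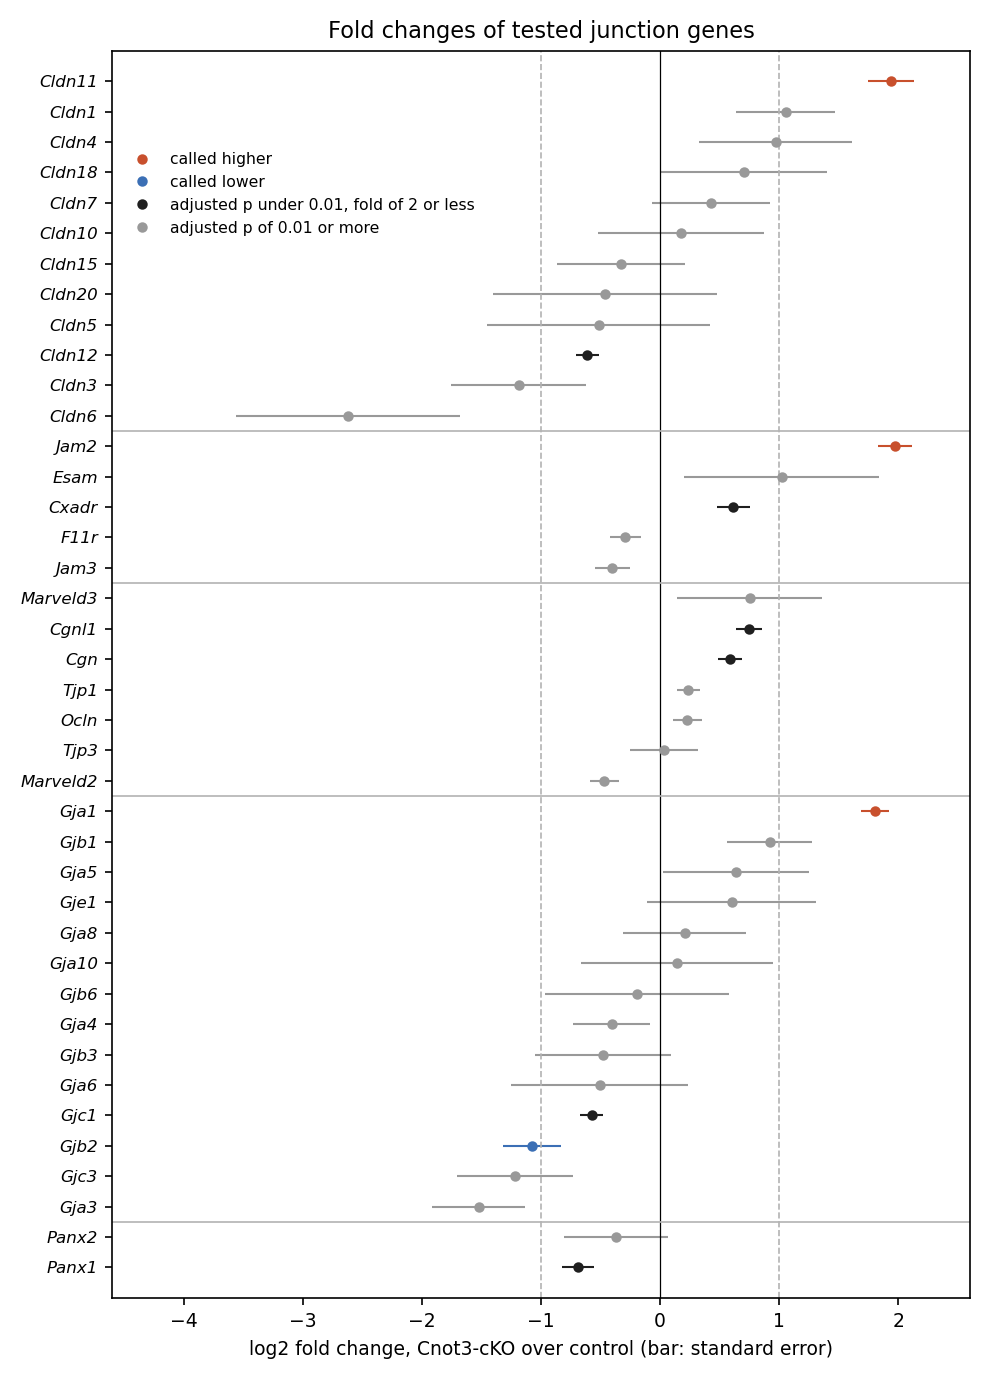
Log2 fold change of *Cnot3*-cKO over control for the tested junction genes that are reported, with bars of 1 standard error from the edgeR fit (2 libraries per group), grouped from top to bottom as claudins, JAM-type molecules, other tight junction genes, connexins and pannexins. *Cldn11*, *Jam2* and *Gja1* lie between 1.80 and 1.98 to the right of the 2-fold line, and *Gjb2* lies at -1.08.

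*Gja1*, which encodes connexin 43, was the most abundant connexin per length in *Cnot3*-cKO libraries, at 17.7 CPM per kb of exon. The gene lies on chromosome 10 at 56377330 to 56402513 of GRCm38, on the plus strand. Its counts were 2378 and 1904 reads in controls and 4120 and 5208 reads in the shallower *Cnot3*-cKO libraries, or 59.0 and 45.3 CPM against 182 and 182 CPM. Both *Cnot3*-cKO libraries stood well above both controls and were nearly equal to each other. The log2 fold change was 1.80 ± 0.12 (SE; edgeR adjusted p = 2.18e-06), a 3.49-fold difference. Leaving out each library in turn gave 1.61 to 1.99.

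*Cldn11*, claudin 11, is the claudin that builds the tight junction strands of Sertoli cells. It lies on chromosome 3 at 31149920 to 31164324 (GRCm38, plus strand). It was counted at 4.64 and 5.97 CPM in controls, from 187 and 251 reads, and at 19.2 and 21.4 CPM in *Cnot3*-cKO libraries, from 436 and 612 reads. The groups were far apart compared with the spread within each. The log2 fold change was 1.94 ± 0.19 (SE; edgeR adjusted p = 3.74e-05), or 3.83-fold, and ranged from 1.75 to 2.12 with each library left out.

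*Jam2* encodes JAM-B, an immunoglobulin-type adhesion molecule that binds JAM-C (*Jam3*) on a neighbouring cell. The gene lies on chromosome 16 at 84774123 to 84825928 (GRCm38, plus strand). Its level was 12.2 and 13.4 CPM in controls and 55.3 and 45.6 CPM in *Cnot3*-cKO libraries. Again the groups did not overlap, and the *Cnot3*-cKO libraries differed more from each other than the controls did. The log2 fold change was 1.98 ± 0.14 (SE; edgeR adjusted p = 3.77e-06), or 3.93-fold.

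The RefSeq promoter sequences of *Gja1* and *Cldn11* are shown because these genes rose together, as the 250 bases before the listed start on GRCm38.p6 in the direction of transcription. The table held 39 of the 59 members, and *Jam2* was not among them. A set of 5 motifs was searched on both strands, namely the GC box (GGGCGG), the TATA box (TATAAA), the CCAAT box (CCAAT), the AP-1 element (TGANTCA) and a SOX element (ACAAAG). Capitals mark every match in the lines shown.
Gja1, chr10:56377050-56377299, plus strand: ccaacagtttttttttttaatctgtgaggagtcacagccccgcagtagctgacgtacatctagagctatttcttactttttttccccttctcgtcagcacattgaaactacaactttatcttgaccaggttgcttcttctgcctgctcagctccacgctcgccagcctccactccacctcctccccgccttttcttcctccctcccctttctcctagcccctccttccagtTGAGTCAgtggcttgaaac
Cldn11, chr3:31149670-31149919, plus strand: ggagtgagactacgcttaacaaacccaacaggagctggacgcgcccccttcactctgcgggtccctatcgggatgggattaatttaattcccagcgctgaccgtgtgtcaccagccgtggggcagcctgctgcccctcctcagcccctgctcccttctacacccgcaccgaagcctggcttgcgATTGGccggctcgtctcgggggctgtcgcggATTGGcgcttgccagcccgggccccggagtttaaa
*Gja1* held 1 AP-1 element, 19 to 13 bases before the start, a motif found in 6.87% of the 27025 promoters of the table and in 4 of the 39 member promoters. *Cldn11* held 2 CCAAT boxes in reverse orientation, at 66 to 62 and at 35 to 31 bases before the start. CCAAT was found in 34.5% of all promoters and in 15 of the 39. The SOX element, in 16.5% of all promoters, was in neither window. The pair had no motif of this search in common.

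Markers of Sertoli cells, which make both *Gja1* and *Cldn11*, were higher in the same libraries. The 13 Sertoli markers, which include no junction gene, summed to 406 and 421 CPM in controls and to 1237 and 1222 CPM in *Cnot3*-cKO libraries. All 13 lay above both controls, 12 were called higher, and their median log2 fold change was 1.92. Among them *Amh*, the hormone that regresses the Müllerian duct, rose by 2.62, *Aard* by 1.98 and *Clu*, the secreted chaperone clusterin, by 1.69 on the log2 scale. No defining marker was at 0 in any group. Per 1000 CPM of the Sertoli markers, *Gja1* stood at 145 and 107 CPM in controls and at 147 and 149 CPM in *Cnot3*-cKO libraries. On that scale *Cldn11* stood at 11.4 and 14.2 against 15.6 and 17.5 CPM, and *Jam2* at 30.04 and 31.9 against 44.7 and 37.3 CPM. For each of these genes both *Cnot3*-cKO values lay above both control values on that scale, for *Gja1* by a narrow margin. The sum is weighted by its most abundant genes, *Clu* and *Ctsl*, with control means of 148 and 156 CPM. These rose by 1.69 and 1.23 on the log2 scale, less than the list median of 1.92. Beside that median, *Gja1*, *Cldn11* and *Jam2* rose by 1.80, 1.94 and 1.98. Per 1000 CPM of the pan-germ cell genes, *Gja1* went from 12.4 and 8.68 CPM in controls to 40.8 and 39.0 CPM in *Cnot3*-cKO libraries. There *Cldn11* went from 0.973 and 1.14 to 4.32 and 4.58 CPM, and *Jam2* from 2.56 and 2.58 to 12.4 and 9.77 CPM. The part of Sertoli cell RNA in the rise of these 3 genes was not tested.

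Most Leydig cell and macrophage markers moved in the same direction. Of 5 tested Leydig markers 4 were called higher, with a summed level of 322 to 368 CPM in controls and 831 to 896 CPM in *Cnot3*-cKO libraries, while *Insl3* was at 0 in all 4 libraries. *Cyp11a1*, *Hsd3b1* and *Lhcgr*, of steroid synthesis and its hormonal control, rose by 1.20, 1.35 and 1.57 on the log2 scale. Of 6 macrophage markers 5 were called higher (112 to 178 CPM against 324 to 392 CPM), with *C1qa* at 1.56, *Mrc1* at 1.39 and *Csf1r* at 1.21. The uncalled macrophage marker, *Cd14*, was at -0.30, with both *Cnot3*-cKO values below both controls. Of 6 endothelial markers *Pecam1* and *Kdr* were called higher, at 1.18 and 1.17, and of 6 peritubular myoid markers none was called, with a median of 0.53. Of 10 pan-germ cell genes none was called higher and *Nanos3* was called lower at -1.07, with a median of -0.06. *Dppa3* had the lowest value of that list, -2.22, and was not called (edgeR adjusted p = 0.0227). Both of its *Cnot3*-cKO values were below both controls. Of 9 undifferentiated spermatogonia genes, with a median of 0.15, *Id4* was called higher at 1.04. In that list *Gfra1*, a receptor for GDNF, had a log2 fold change of 0.90 and the transcription factor *Zbtb16* one of -0.82, both chosen after their values were seen and both under the 2-fold limit. Their part in the junction gene changes was not tested.

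**Figure D2:**
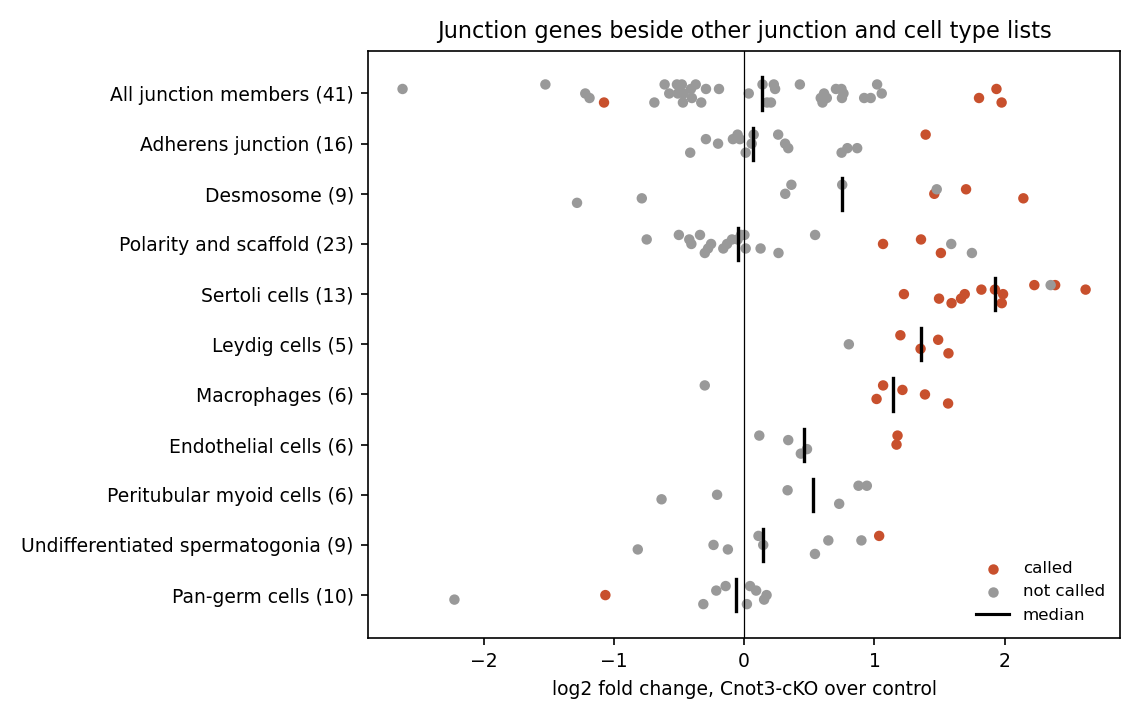
Log2 fold change of *Cnot3*-cKO over control for each tested gene of the junction set, of 3 lists of other junction genes and of 7 cell type marker lists (number of genes in parentheses), with the median as a vertical bar and called genes in orange. The junction members spread on both sides of 0 around a median of 0.14, whereas the 13 Sertoli markers lie to the right with a median of 1.92.

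The claudins set which ions and small molecules a tight junction lets through. Of 23 claudins 12 were tested, with *Cldn11* as the sole call. The median log2 fold change of the 12 was -0.08, with 6 above both controls, 3 below both and 3 overlapping. *Cldn12* was the most abundant claudin per length of exon, at 26.3 CPM per kb of exon in controls, compared with 2.84 for *Cldn11*, 0.991 for *Cldn20* and 0.790 for *Cldn3*. *Cldn12*, on chromosome 5 at 5489537 to 5514958 (minus strand), was counted at 105 and 117 CPM in controls and at 73.3 and 72.4 CPM in *Cnot3*-cKO libraries. The groups did not overlap. It fell by 0.61 ± 0.10 on the log2 scale (SE; edgeR adjusted p = 9.08e-04), less than the 2-fold limit. Per 1000 CPM of the pan-germ cell genes *Cldn12* also stood lower, at 22.0 and 22.5 CPM in controls and 16.4 and 15.5 CPM in *Cnot3*-cKO libraries.

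With *Cldn11* higher and *Cldn12* lower, the makeup of the claudin transcripts differed between groups while their sum per length did not separate. Summed over all claudins, the level was 31.2 and 35.4 CPM per kb in controls and 30.2 and 33.3 CPM per kb in *Cnot3*-cKO libraries, which overlapped. *Cldn12* took 79.8% and 78.4% of that sum in controls and 57.4% and 51.5% in *Cnot3*-cKO libraries. *Cldn11* took 7.97% and 9.01% in controls and 34.1% and 34.3% in *Cnot3*-cKO libraries. The ratio of *Cldn11* to *Cldn12* per length therefore went from 0.0999 and 0.115 to 0.593 and 0.667. This ratio does not depend on how libraries were scaled. Whether both transcripts came from the same cells was not tested.

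*Cldn3*, a barrier claudin that appears as spermatocytes cross between Sertoli cells, was low. It was counted at 0.944 and 1.05 CPM in controls and at 0.530 and 0.349 CPM in *Cnot3*-cKO libraries (log2 fold change -1.19 ± 0.57, SE; edgeR adjusted p = 0.168). *Cldn20* had 0.571 and 0.737 CPM in controls and 0 and 0.908 CPM in *Cnot3*-cKO libraries, so the groups overlapped. *Cldn6*, chosen after its values were seen as the member with the lowest log2 fold change, had 0.596 and 0.832 CPM against 0 and 0.209 CPM. Its value of -2.62 had an SE of 0.94 (edgeR adjusted p = 0.0679), so the size of the difference was poorly determined at this depth.

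**Figure D3:**
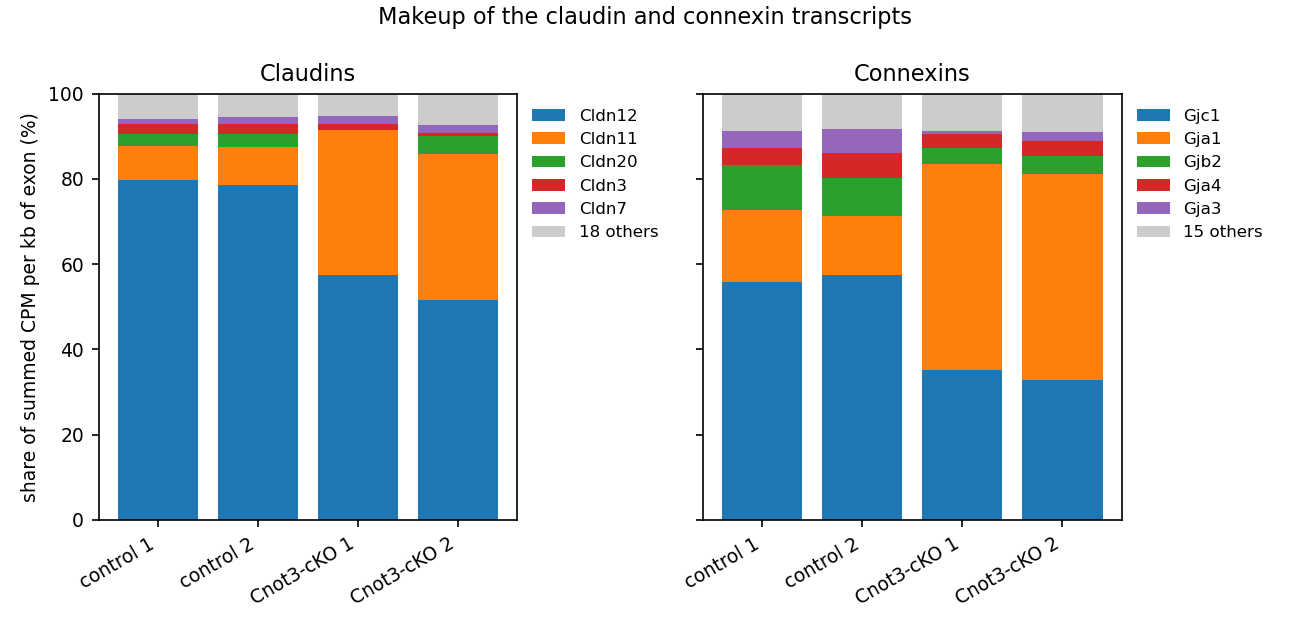
Share of each claudin (left) and each connexin (right) in the summed CPM per kb of exon of its family, in percent, for the 4 libraries, with the 5 members of highest mean share over the 4 libraries drawn separately. *Cldn11* widens from 7.97% and 9.01% in controls to 34.1% and 34.3%, and *Gja1* from 17.1% and 13.9% to 48.4% and 48.4%.

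Of 20 connexins 14 were tested, with *Gja1* called higher and *Gjb2* called lower. Their median log2 fold change was -0.30, with 4 above both controls, 6 below both and 4 overlapping. The main connexin of control libraries per length was *Gjc1* (connexin 45), at 18.5 CPM per kb of exon, followed by *Gja1* at 5.08 and *Gjb2* at 3.16. *Gjc1*, on chromosome 11 at 102799579 to 102819700 (minus strand), had 93.9 and 91.1 CPM in controls and 64.2 and 59.98 CPM in *Cnot3*-cKO libraries. The 2 control values were close and both were above both *Cnot3*-cKO values. It fell by 0.58 ± 0.10 on the log2 scale (SE; edgeR adjusted p = 0.0014). Without *Cnot3*-cKO library 2 its adjusted p was 0.0121.

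By level per kb of exon, *Gja1* and *Gjc1* changed places as the main connexin. The lengths were 10257 bases for *Gja1* and 5003 for *Gjc1*, each the union of exons over all annotated transcripts. The shares and the ratio depend on these lengths. The order of *Gjc1* and *Gja1* within each group was the same in CPM. In mean CPM, without length, *Gjc1* was at 92.5 and *Gja1* at 52.1 in controls, against 62.1 and 182 in *Cnot3*-cKO libraries. *Gjc1* took 55.7% and 57.4% of the summed connexin level per length in controls and 35.0% and 32.7% in *Cnot3*-cKO libraries. *Gja1* took 17.1% and 13.9% in controls and 48.4% in each *Cnot3*-cKO library. The ratio of *Gja1* to *Gjc1* per length was 0.307 and 0.242 in controls and 1.38 and 1.48 in *Cnot3*-cKO libraries. The whole connexin sum was 33.7 and 31.7 CPM per kb in controls and 36.6 and 36.7 CPM per kb in *Cnot3*-cKO libraries. Whether *Gja1* and *Gjc1* RNA came from the same cells was not tested.

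*Gjb2* (connexin 26) and *Gja3* (connexin 46) are neighbours on the minus strand of chromosome 14, and both were lower in *Cnot3*-cKO libraries. *Gja3* lies at 57034460 to 57058100 and *Gjb2* at 57098600 to 57104702 of GRCm38, with 40499 bases between them. *Gjb2* had 342 and 282 reads in controls and 75 and 111 reads in *Cnot3*-cKO libraries, or 8.49 and 6.70 CPM against 3.31 and 3.88 CPM. The groups did not overlap. The log2 fold change was -1.08 ± 0.24 (SE; edgeR adjusted p = 0.00772). The call rested on single libraries, since the adjusted p was 0.0156 without control library 1 and 0.0202 without *Cnot3*-cKO library 1, and was 0.0223 when libraries were scaled to the pan-germ cell genes.

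*Gja3*, chosen after its values were seen, was counted at 3.92 and 5.44 CPM in controls and at 0.883 and 2.30 CPM in *Cnot3*-cKO libraries. The groups did not overlap, and the 2 *Cnot3*-cKO libraries differed more than 2-fold from each other. Its log2 fold change was -1.53 ± 0.39 (SE) and missed the threshold in the edgeR fit (adjusted p = 0.0149), whereas DESeq2 gave an adjusted p of 0.0039. The remaining connexin of this cluster, *Gjb6* (connexin 30, at 57123303 to 57133611), lies 18600 bases beyond *Gjb2*. It had 0.894 and 0.190 CPM in controls and 0.530 and 0.419 CPM in *Cnot3*-cKO libraries, which overlapped.

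The promoters of *Gjb2* and *Gja3*, from the same RefSeq table and with the same motifs in capitals, are shown because the neighbouring genes were lower together.
Gjb2, chr14:57104703-57104952, minus strand: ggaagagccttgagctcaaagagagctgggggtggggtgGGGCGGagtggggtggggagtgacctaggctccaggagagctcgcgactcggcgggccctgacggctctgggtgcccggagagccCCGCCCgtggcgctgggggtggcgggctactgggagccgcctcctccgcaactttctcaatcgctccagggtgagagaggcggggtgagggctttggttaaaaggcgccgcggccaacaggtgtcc
Gja3, chr14:57058031-57058280, minus strand: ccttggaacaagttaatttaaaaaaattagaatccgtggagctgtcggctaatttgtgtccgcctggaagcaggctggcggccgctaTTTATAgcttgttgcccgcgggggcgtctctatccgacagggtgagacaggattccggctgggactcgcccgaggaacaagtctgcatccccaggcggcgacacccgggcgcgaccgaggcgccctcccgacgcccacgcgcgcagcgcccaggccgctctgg
*Gjb2* held 2 GC boxes, at 211 to 206 bases before the start as written and at 126 to 121 bases in reverse orientation. The GC box was found in 32.9% of all promoters and in 17 of the 39 member promoters. *Gja3*, for which the first of 2 listed starts was used, held 1 TATA box in reverse orientation, 163 to 158 bases before the start, a motif of 12.97% of all promoters and of 5 of the 39. The neighbours had no motif of this search in common.

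The pannexin *Panx1*, an ATP-release channel, was lower as well. It was counted at 44.2 and 43.2 CPM in controls and at 30.3 and 24.02 CPM in *Cnot3*-cKO libraries, without overlap. It fell by 0.69 ± 0.14 on the log2 scale (SE; edgeR adjusted p = 0.0037), and without *Cnot3*-cKO library 2 the adjusted p was 0.0393. *Panx2*, the other tested pannexin, had 1.69 and 1.83 CPM against 0.794 and 1.89 CPM, which overlapped.

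Of the plaque and MARVEL proteins of the tight junction, 8 of 8 were tested and none passed the 2-fold limit. *Tjp1* (ZO-1), the central scaffold, was the most abundant junction gene per length, at 58.2 CPM per kb of exon in controls and 68.7 in *Cnot3*-cKO libraries. Its levels were 498 and 412 CPM in controls and 548 and 524 CPM in *Cnot3*-cKO libraries, and both *Cnot3*-cKO values were above both controls. The log2 fold change of 0.24 ± 0.09 (SE) did not pass (edgeR adjusted p = 0.0938). *Tjp3* (ZO-3) had 2.91 and 4.11 CPM against 3.27 and 3.91 CPM, which overlapped.

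The cingulins, which bind ZO proteins at the junction, rose together. *Cgn* had 65.6 and 66.6 CPM in controls and 105 and 93.7 CPM in *Cnot3*-cKO libraries (log2 fold change 0.59 ± 0.10, SE; edgeR adjusted p = 0.00136). *Cgnl1*, paracingulin, had 32.1 and 33.3 CPM against 57.1 and 52.6 CPM (0.75 ± 0.11, SE; adjusted p = 6.94e-04). For both genes the groups did not overlap. Without *Cnot3*-cKO library 1 the adjusted p of *Cgn* was 0.0186 and that of *Cgnl1* 0.00307. Per 1000 CPM of the Sertoli markers, *Cgn* and *Cgnl1* were lower in both *Cnot3*-cKO libraries than in both controls, *Cgn* going from 162 and 158 CPM to 84.9 and 76.7 CPM. Per 1000 CPM of the pan-germ cell genes they were higher, *Cgn* going from 13.8 and 12.8 CPM to 23.6 and 20.1 CPM. Among the MARVEL proteins *Ocln*, occludin, had 38.2 and 38.4 CPM against 41.3 and 48.4 CPM (0.23 ± 0.12, SE; adjusted p = 0.217). *Marveld2*, tricellulin of tricellular contacts, had 40.5 and 45.4 CPM against 31.4 and 30.7 CPM (-0.47 ± 0.12, SE; adjusted p = 0.016), and DESeq2 gave an adjusted p of 0.00471.

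**Figure D4:**
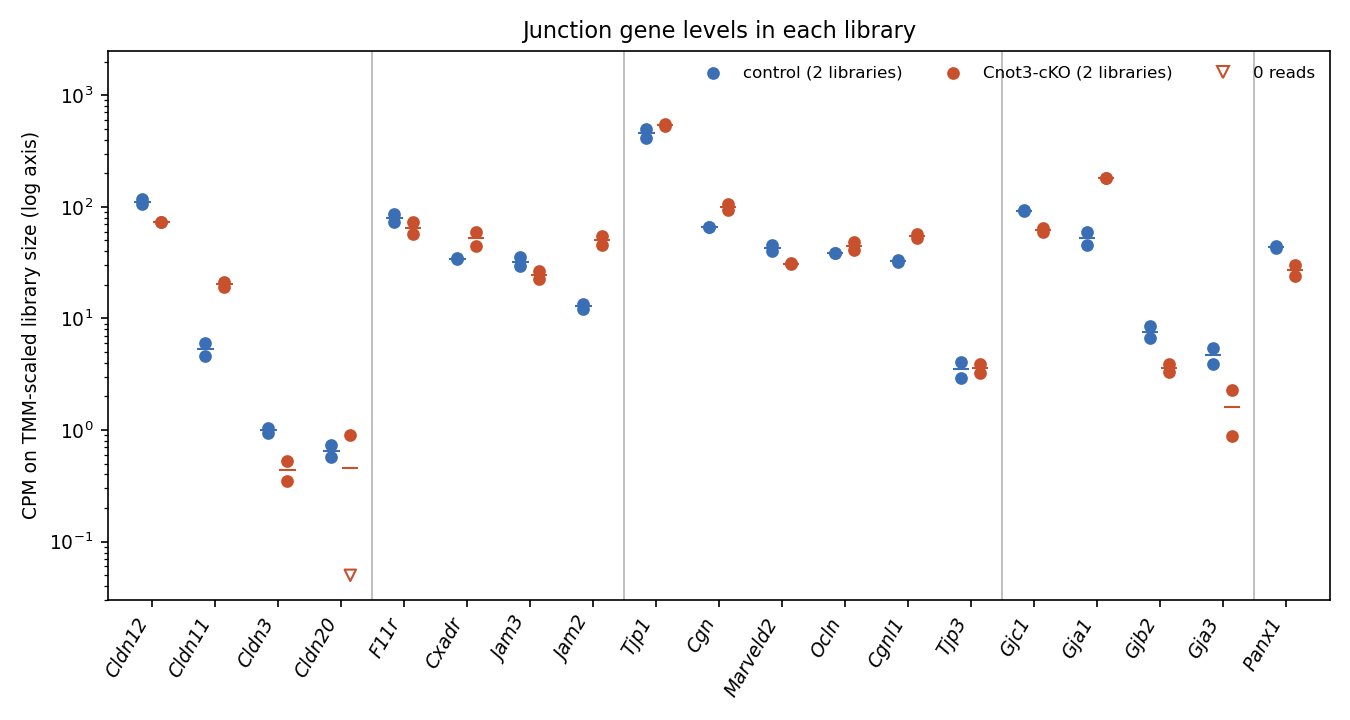
Level of the named junction genes in each library, as CPM on TMM-scaled library size on a log axis, with blue points for the 2 control libraries, orange points for the 2 *Cnot3*-cKO libraries, a line at each group mean and an open triangle for 0 reads. *Gja1*, *Cldn11* and *Jam2* show the widest upward gaps, *Gjb2* and *Gja3* lie lower in *Cnot3*-cKO libraries, and *Tjp1* is the highest at 412 to 548 CPM.

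The JAM-type adhesion molecules went in different directions. Of the 5 tested, *Jam2* was called higher, and 2 were above both controls, 2 below both and 1 overlapped. *Cxadr*, the coxsackie and adenovirus receptor, had 34.1 and 34.5 CPM in controls and 44.9 and 59.8 CPM in *Cnot3*-cKO libraries. The groups did not overlap, and *Cnot3*-cKO library 2 was the highest. It rose by 0.61 ± 0.14 on the log2 scale (SE; edgeR adjusted p = 0.00759), but without that library the value was 0.39 with an adjusted p of 0.156. *Cxadr* shares 695 of its 7400 exon bases with *Btg3* on the opposite strand, and whether counting used strand was not stated.

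*F11r* (JAM-A), the most abundant JAM-type gene per length at 29.97 CPM per kb of exon in controls, had 86.5 and 73.2 CPM in controls and 73.0 and 57.4 CPM in *Cnot3*-cKO libraries. Its log2 fold change was -0.29 ± 0.13 (SE; edgeR adjusted p = 0.131). *Jam3*, the partner of JAM-B, had 29.3 and 35.2 CPM in controls and 22.3 and 26.5 CPM in *Cnot3*-cKO libraries (-0.40 ± 0.15, SE; adjusted p = 0.0731). Both genes lay below both controls in both *Cnot3*-cKO libraries without passing the test, and *Jam3* shares 1159 of its 3200 exon bases with an antisense gene, *Gm48796*. The ratio of *Jam2* to *Jam3* per length rose from 0.220 and 0.202 in controls to 1.31 and 0.910 in *Cnot3*-cKO libraries, and the ratio of *Jam2* to *F11r* from 0.0621 and 0.0808 to 0.334 and 0.350. The 4 libraries did not overlap between groups in either ratio. Whether these transcripts came from the same cells was not tested.

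The 14 genes of the blood-testis barrier included *Cldn3*, *Cldn11*, *Ocln*, *Marveld2*, *Tjp1*, *Tjp3*, *F11r*, *Jam2*, *Jam3*, *Cgn*, *Cgnl1*, *Cxadr* and *Gja1*. Of these 3 were called higher and none lower (4.03% and 0.735% of all tested genes), and 7 rose at an adjusted p under 0.01 with no fold limit (6.21% of all genes). In 9 of the 14, beside 30.5% of all genes, both *Cnot3*-cKO values exceeded both control values, in 4 both were below (28.6% of all genes), and for *Tjp3* the groups overlapped. Their median log2 fold change was 0.41. The 16 tested gap junction and pannexin genes had a median of -0.39, with 1 called in each direction.

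Precision differed with level. The 14 tested members at 10 CPM or more in controls had standard errors of 0.09 to 0.15 on the log2 scale. The 27 members under 10 CPM comprised 2 called genes, *Cldn11* and *Gjb2*, and 25 that were not called, with standard errors of 0.29 to 0.94 for the latter and log2 fold changes of -2.62 to 1.06. For the least abundant of them a 2-fold change was not detectable at this depth. The 18 untested members were 11 claudins, 6 connexins and 1 pannexin. The claudins *Cldn8*, *Cldn17*, *Cldn22* and *Cldn24* had 0 reads in all 4 libraries, where 3 reads correspond to 0.0713 to 0.132 CPM. All 995 exon bases of *Cldn22* overlap *Wwc2* on the opposite strand, which had 977 to 3332 reads per library. If counting ignored strand, reads there may have been dropped, so the 0 of *Cldn22* may not measure its level. The highest count among untested members was 14 reads, for *Gjd2*, the neuronal connexin 36, chosen after its values were seen. It had 14 and 12 reads in controls and 0 in both *Cnot3*-cKO libraries. Its control mean was 2.67-fold above the mean floor of 3 reads in the *Cnot3*-cKO libraries. That floor covers counting error only, not the spread between libraries, and the difference was not tested.

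Other cell-cell junctions are given for comparison, beside the 4.03% of all tested genes that were called higher and the 0.735% called lower. Of 16 adherens junction genes, only the immunoglobulin-type adhesion molecule *Nectin2* was called, going from 8.85 ± 1.70 to 23.3 ± 0.197 CPM (SD, n = 2 and 2; log2 fold change 1.39 ± 0.18, SE; edgeR adjusted p = 2.20e-04), and the median of the list was 0.07. Of 9 desmosome genes 3 were called higher and none lower, with a median of 0.75. The desmosomal plaque protein *Dsp* went from 4.26 ± 1.28 to 18.8 ± 2.36 CPM (SD; 2.14 ± 0.23, SE; adjusted p = 6.51e-05), and the desmosomal cadherins *Dsc2* and *Dsc3* rose by 1.70 and 1.46. Of 23 polarity and scaffold genes *Pard3b*, *Magi2* and *Amotl2* were called higher, at 1.36, 1.51 and 1.07, and the list's median was -0.05.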

How the data were processed

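RNA-seq was made from total RNA of FACS-sorted ID4-EGFP+ testis cells, 2 libraries per group, with a stranded kit. The authors kept reads of sufficient mean Phred quality, aligned them to mm10 with STAR and assigned them to GENCODE genes with featureCounts; the deposited values are whole-number read counts per gene symbol, not normalized. Options for strand and for reads matching several genes are not given in the sources used here. Genes overlapping on opposite strands may therefore have gained or lost reads of the overlap.

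Counts were fitted over all genes with edgeR 4.0.16 in R 4.3.3 (TMM scaling, default expression filter, quasi-likelihood F test, Benjamini-Hochberg adjustment over 23952 tested genes). Calls took an adjusted p under 0.01 with a fold change above 2, the limits of the study, which used DESeq2; DESeq2 1.42.0 was an alternative here. Library sizes were 22192964 to 43378493 reads, and 3 reads correspond to 0.0713 to 0.132 CPM, a floor that covers counting error only. Replicates differed beyond sampling noise (chi-square per degree of freedom 23.0 in controls and 7.26 in *Cnot3*-cKO libraries). Standard errors were the absolute log2 fold change divided by the square root of F. Exon lengths and coordinates were from GENCODE M21 on GRCm38 (mm10), and promoters were those of RefSeq on GRCm38.p6. Each length was the union of exons over all annotated transcripts of the gene, so levels, shares and ratios per kb depend on it. All 59 members matched M21. Figures were drawn with matplotlib 3.10.9.

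The members and lists were chosen with earlier results of these data known, so no test was made over a list. Named genes were the called members, those with an adjusted p under 0.01, the 14 blood-testis barrier genes, the 3 most abundant per length of claudins, connexins and other members, *Cnot3*, and up to 3 called genes of each list with the smallest p. Some members are counted but their values are not reported here. Ratios to marker sums were added after values were seen. Alternatives were other scalings, filters, thresholds, DESeq2, a replicate block and leaving out each library. Libraries with the same replicate number share only that number; deviations of those numbered 1 correlated at 0.0642 over 16437 genes. The statistics were tested on simulated data.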

Additional observations from a re-analysis of the deposited data

How the results depend on the processing

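The 3 junction genes called higher (*Cldn11*, *Gja1*, *Jam2*) were called under each alternative run on all 4 libraries, and 7 were higher with no fold limit. Leaving out a library left 1 in its group, so those fits took their spread from the other group alone. Their log2 fold changes were 1.75 to 2.12 for *Cldn11*, 1.61 to 1.99 for *Gja1* and 1.82 to 2.10 for *Jam2*. Calls of lower junction genes, of which there was 1 (*Gjb2*), were 0 with library size only and with scaling to pan-germ cell genes, 2 (*Gja3*, *Gjb2*) with no expression filter, with DESeq2, with the replicate block and at an adjusted p under 0.05, and 4 with no fold limit. Leaving out single libraries gave 0 to 4, with 0 without *Cnot3*-cKO library 1, *Gja3* alone without control library 1, and *Cldn6*, *Cldn20*, *Gja3* and *Gjb2* without *Cnot3*-cKO library 2. The cause was not tested.

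The members' median log2 fold change, 0.14, was 0.13 with RLE scaling, 0.21 with library size only, 0.29 with scaling to pan-germ cell genes, 0.16 at a mean count of at least 50, and 0.10 to 0.23 with libraries left out; the replicate block gave 0.14. Scaling to pan-germ cell genes moved the median of all genes from 0.01 to 0.14. Among all genes, 965 were higher, or 1452 at an adjusted p under 0.05, 1488 with no fold limit, 1155 with the replicate block and 943 to 1225 with libraries left out. The 176 lower were 100 with pan-germ scaling, 285 with no filter, 284 at an adjusted p under 0.05, 1125 with no fold limit, 217 with the replicate block and 217 to 271 with libraries left out. *Tjp3* reversed to -0.21 without control library 1 and to -0.11 without *Cnot3*-cKO library 2, and *Cldn20* to 0.46 without *Cnot3*-cKO library 1; none of these 3 values passed the test. With libraries left out *Tjp3* ranged from -0.21 to 0.30, and *Cldn20* from -7.53 to 0.46, its lowest value arising without *Cnot3*-cKO library 2, where its only remaining count in that group was 0. Of the other comparisons of named genes with an alternative, 494 kept their direction and their side of the threshold, 12 lost it and 8 gained it. Depth limits members under 10 CPM.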
